A study of Mus musculus with 6 samples.

Results

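Expression of 10 genes for fatty acid desaturases and elongases was examined in mouse neuro2a (N2a) neuroblastoma cells after knockdown of NF-Y. The genes were the stearoyl-CoA desaturases Scd1 and Scd2, the fatty acid desaturases Fads1, Fads2 and Fads3, and the elongases Elovl1, Elovl2, Elovl4, Elovl5 and Elovl6. They were chosen by enzyme family, through the transcript accessions of 12 array probes, by a rule that uses no measured value, although earlier results of these data were known. In all, 9 of the 10 passed the filter on low signal, among 16490 genes tested.

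The study compared 3 arrays of N2a cells transfected with an empty vector, here called control, with 3 arrays of cells given miR RNAi vectors for NF-YA and -YC, termed knockdown. N2a is an established mouse neuroblastoma line, and both groups are transiently transfected cultures of it, with no sorting of transfected cells described. The series' design text names an empty vector and no non-targeting hairpin for these arrays, so a response to any hairpin and a response to less NF-Y cannot be told apart here. Nothing in the labels says whether the arrays of a group came from separate cultures, so the p-values measure the spread between these samples, which may be technical.

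Desaturases place double bonds into fatty acyl chains bound to coenzyme A, and they take the electrons for this from cytochrome b5. Scd enzymes make monounsaturated oleate and palmitoleate from saturated chains, whereas Fads1 and Fads2 are the delta-5 and delta-6 desaturases on the route to arachidonic and docosahexaenoic acid, both abundant in neuronal membranes. Elongases of the ELOVL family catalyse the first, condensing step of the cycle that lengthens such chains in the endoplasmic reticulum. NF-Y is a trimer of NF-YA, NF-YB and NF-YC that binds CCAAT motifs in promoters, and it is known to act together with SREBP, the transcription factor of lipid synthesis, at several lipid genes.

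Signal is given as log2 of the processed signal minus the 75th percentile of the same array, so 0 is the 75th percentile, which lay between 718 and 754 intensity units. Changes are knockdown minus control on this log2 scale. A gene was called when its limma adjusted p was below 0.05 and its fold change above 1.5, which is 0.585 in log2. All 9 tested members were well above background on all 6 arrays, and 0 spots were saturated. As a check of the labels, Nfya changed by -0.76 (SE 0.055) and Nfyc by -1.81 (SE 0.045), and both were called lower. Nfyb, which was not targeted, changed by 0.83 (SE 0.060) and was called higher. Of 17 markers of neuroblastoma and sympathetic neurons, 15 were well above background on all 6 arrays, and none of the 5 markers of adipocytes and hepatocytes was. Summed over a list, in multiples of the 75th percentile, the neuroblastoma markers gave 397 to 407 on control and 375 to 388 on knockdown arrays. The 6 glial markers, 5 of them well above background on all arrays and Gfap not, gave 1.19 to 1.25 against 0.866 to 0.933, and the 5 adipocyte and hepatocyte markers 0.0348 to 0.0436 against 0.0511 to 0.0757, with Plin1, Alb and Apoa1 not well above background on any array. The part of these shifts in the results was not tested. Sums of the fibroblast and macrophage markers overlapped between the groups.

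Among the 9 tested genes, 4 fell in the knockdown cells and 0 rose past both thresholds. Scd1 fell most, followed by Fads2, Fads3 and Elovl1. In the background of all genes tested, 5.00% were called lower and 3.91% higher. The other 5 genes stayed under the minimum fold change. At the adjusted p alone, 8 of the 9 were lower and 1, Elovl4, was higher, against 15.8% and 15.7% of all genes. All knockdown arrays lay below all control arrays for the same number of genes, 8, and above them for 1, against 27.1% and 27.7% of all genes. The median change of the 9 genes was -0.57, and that of all genes tested was 0.0053.

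**Figure D1:**
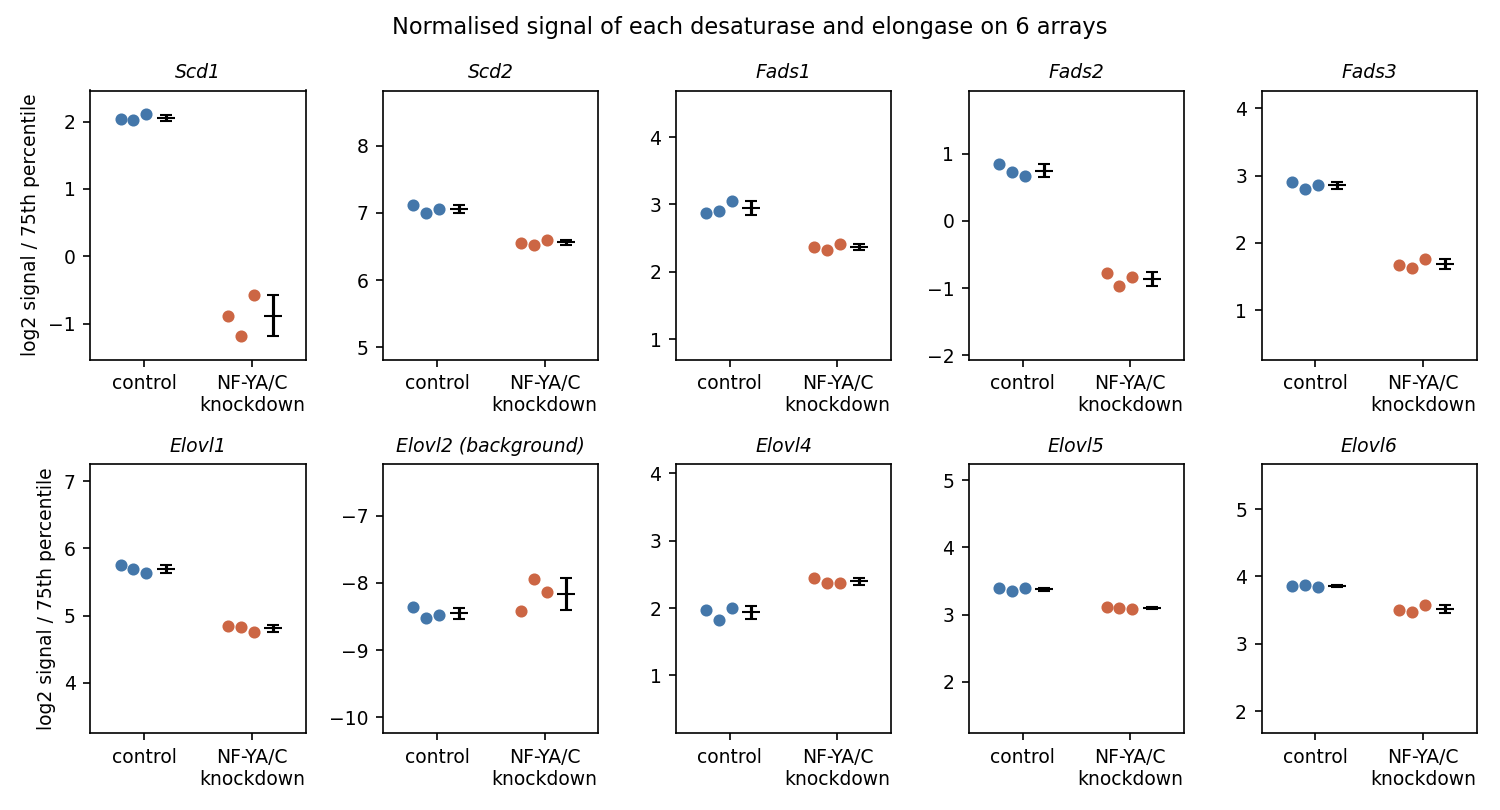
Normalised signal of the 10 genes on each array, as log2 of signal over the 75th percentile of the array, with 3 control arrays (blue) and 3 knockdown arrays (orange) in every panel. Bars are the mean ± SD, each panel spans the same 4 log2 units, and the level of one panel is not comparable with that of another. The groups are apart in the 9 tested genes, by most in Scd1, and Elovl2 was at background on all 6 arrays.

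Because NF-Y binds CCAAT motifs, the annotated promoters of the members were searched for this motif and for TCACNCCAC, a form of the sterol regulatory element that SREBP binds, on both strands, in windows from 250 bases before to 50 bases after the transcription start. RefSeq sequences of GRCm38.p6 were at hand for 7 of the 10 genes, in 9 windows. Scd1, Scd2 and Fads1 had no sequence and were not searched. The motif CCAAT was found in 4 of the 9 windows, those of Fads3, Elovl1, Elovl4 and Elovl5, and in 37.4% of all 32851 windows of the table. Counted by gene, it was found in 4 of the 7 members, which include the untested Elovl2, and in 42.6% of the 13098 tested genes of the table. TCACNCCAC was found in 0 of the 7 genes and in 1.24% of all windows. Shown are the 150 bases before the start of the most strongly lowered gene with a sequence (Fads2), which held no match, and of the 3 genes with a match before the start. Capitals mark CCAAT, or ATTGG where the motif lies on the other strand. The windows lie at chr19:10101504-10101653 on the minus strand (Fads2), chr19:10041398-10041547 on the plus strand (Fads3), chr4:118427943-118428092 on the plus strand (Elovl1) and chr9:77917215-77917364 on the plus strand (Elovl5), all upstream of the annotated start.
Fads2: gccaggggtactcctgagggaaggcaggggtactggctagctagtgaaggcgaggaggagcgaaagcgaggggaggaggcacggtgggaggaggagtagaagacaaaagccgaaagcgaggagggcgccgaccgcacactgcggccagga
Fads3: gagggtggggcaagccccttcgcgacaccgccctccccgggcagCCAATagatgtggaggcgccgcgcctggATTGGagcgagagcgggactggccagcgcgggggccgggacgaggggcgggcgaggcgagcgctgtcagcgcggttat
Elovl1: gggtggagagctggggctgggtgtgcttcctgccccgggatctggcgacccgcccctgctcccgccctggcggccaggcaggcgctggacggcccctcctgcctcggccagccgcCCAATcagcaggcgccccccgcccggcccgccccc
Elovl5: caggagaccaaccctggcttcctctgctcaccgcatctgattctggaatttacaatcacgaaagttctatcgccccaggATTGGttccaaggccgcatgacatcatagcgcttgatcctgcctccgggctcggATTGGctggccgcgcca

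Fads3 held a CCAAT at positions -106 to -102 and an ATTGG at -78 to -74 from the start. The first of the 2 annotated Elovl1 starts held a CCAAT at -35 to -31, and the other held none. Elovl5 held ATTGG at -71 to -67 and at -17 to -13, and Elovl4 held it behind the start, at 26 to 30. Thus 2 of the 4 genes with a match, Fads3 and Elovl1, were called lower and Elovl4 and Elovl5 were not called, while Fads2, without a match in this window, was called lower. Elovl6, also without a match, was not called. These matches describe the sequence and are not evidence of binding.

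**Figure D2:**
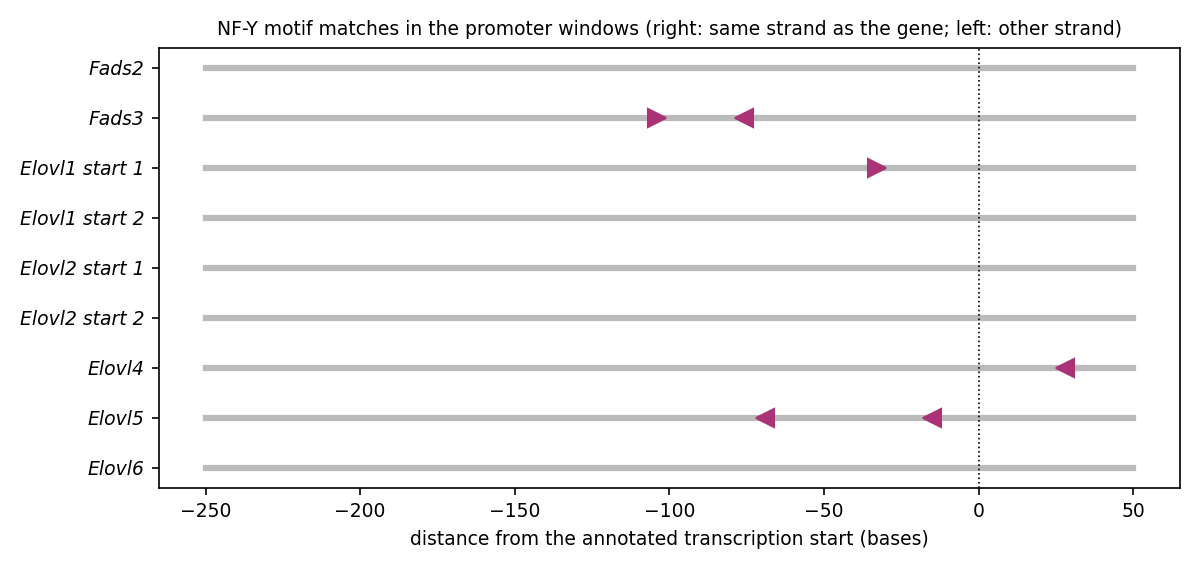
Positions of the CCAAT motif in 9 promoter windows of 7 genes, in bases from the annotated transcription start (dotted line). Arrowheads pointing right lie on the gene's own strand and those pointing left on the other strand. Matches stand before the start in Fads3, Elovl1 and Elovl5, and behind it in Elovl4.

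The stearoyl-CoA desaturases carry out the same reaction, the insertion of the delta-9 double bond, and Scd2 is the form known from brain. Scd1 signal (probe A_52_P682382) was 2.03, 2.03 and 2.11 on control arrays 1 to 3 and -0.89, -1.19 and -0.57 on knockdown arrays 1 to 3. The knockdown arrays all lay below the controls, and they spread more, with an SD of 0.31 against 0.047. The change of -2.94 (SE 0.16, limma adjusted p = 0.00067) is 7.68-fold lower, the 2nd lowest of the 16490 genes. Scd2 signal (probe A_51_P129464) was 7.11, 6.99 and 7.06 on control arrays and 6.55, 6.53 and 6.60 on knockdown arrays. Its groups did not overlap either, but the change of -0.50 (SE 0.051, adjusted p = 0.0031), 1.41-fold, was under the minimum fold change and was not called.

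Fads1, Fads2 and Fads3 are neighbours on chromosome 19. Fads2, the delta-6 desaturase that opens the pathway of polyunsaturated fatty acids, had signals of 0.85, 0.73 and 0.66 on control arrays and -0.77, -0.97 and -0.84 on knockdown arrays. Every knockdown value lay below every control value by more than the range within a group. The change was -1.61 (SE 0.079, adjusted p = 0.00053), 3.05-fold lower, the 70th lowest of all genes. Fads3, which is known to act on sphingoid bases, gave 2.91, 2.81 and 2.87 on control arrays and 1.67, 1.62 and 1.77 on knockdown arrays. Its change was -1.18 (SE 0.059, adjusted p = 0.00056), 2.26-fold lower. Fads1, the delta-5 desaturase, gave 2.87, 2.91 and 3.06 against 2.36, 2.33 and 2.42. The Fads1 groups did not overlap, and the change of -0.57 (SE 0.067, adjusted p = 0.0046), 1.49-fold, lay just under the minimum fold change, so that it was not called.

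Elovl1 elongates saturated and monounsaturated very long chains and was the only elongase called lower. Its signal was 5.76, 5.69 and 5.64 on control arrays and 4.85, 4.83 and 4.75 on knockdown arrays, without overlap. The change was -0.89 (SE 0.054, adjusted p = 0.00083), 1.85-fold lower, and a dimmer probe of Elovl1 gave -0.85 (SE 0.051) and was also called. Elovl5, which elongates polyunsaturated chains, was 3.39, 3.35 and 3.39 on control arrays and 3.11, 3.10 and 3.08 on knockdown arrays. The spread within its groups was narrow, so that a change of -0.28 (SE 0.040, adjusted p = 0.0083), 1.21-fold, separated them, but it was not called. Elovl6, the elongase of palmitate, was 3.87, 3.88 and 3.85 against 3.50, 3.47 and 3.58. Its change was -0.35 (SE 0.047, adjusted p = 0.0070), 1.27-fold, and it was not called.

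Elovl4, which makes the very long chains of retina, skin and brain, was the member with higher signal in the knockdown cells. It gave 1.98, 1.83 and 2.0 on control arrays and 2.45, 2.36 and 2.37 on knockdown arrays. The change of 0.46 (SE 0.065, adjusted p = 0.0083), 1.37-fold, was not called. The 2 probes of Elovl4 differed, since the dimmer one changed by 0.11 (SE 0.058, adjusted p = 0.25). Elovl2, which elongates docosapentaenoic acid, lay between -8.52 and -7.94 on all arrays and was not well above background on any of them, so no change is given.

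All arrays were on 1 slide, in 2 rows, with all controls and knockdown array 1 in row 1, and knockdown arrays 2 and 3 in row 2. Within row 1, 3 control arrays against 1 knockdown array, the changes were -2.95 for Scd1, -0.50 for Scd2, -0.58 for Fads1, -1.52 for Fads2, -1.19 for Fads3 and -0.85 for Elovl1. They were 0.52 for Elovl4, -0.27 for Elovl5 and -0.36 for Elovl6. These values lie close to those over all arrays. A fit with the row as a block rests on the same 1 knockdown array for its changes, with the lone array assumed to vary like the others. It called Scd1, Fads2, Fads3 and Elovl1, and 5 genes instead of 8 were lower at the adjusted p alone. The adjusted p was then 0.052 for Fads1, 0.054 for Elovl4, 0.080 for Elovl5 and 0.063 for Elovl6.

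Whether paralogs of a class changed by different amounts was asked from the difference of their log2 signals within each array. Of 14 pairs within the classes, the 4 with Elovl2 could not be compared. In 9 of the other 10 the control and knockdown arrays did not overlap, each with an exact two-sided permutation p of 0.10 (0.11 after Benjamini-Hochberg adjustment over the 10 pairs). This is the smallest p that 3 against 3 arrays can give, so no pair could reach 0.05. Among all pairs of tested genes, 50.9% did not overlap in the same way, so the count of pairs is to be read against that share.

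Scd1 was lowered more than Scd2 on every knockdown array. The difference of the 2 genes, set to 0 at the control mean, was -0.079, 0.033 and 0.046 on control arrays and -2.45, -2.72 and -2.17 on knockdown arrays, a mean difference in change of -2.45 (SE 0.16). Fads2 was lowered more than Fads1, with Fads1 minus Fads2 at 1.03 (SE 0.12), and Fads3 also more than Fads1, with Fads1 minus Fads3 at 0.60 (SE 0.071). Between Fads2 and Fads3 the difference was -0.43 (SE 0.070), with knockdown arrays at -0.33 to -0.49 and control arrays at -0.090 to 0.051. The order of the lowering was thus Fads2, Fads3, Fads1, and each neighbouring pair in it was apart on all 6 arrays. The step from Fads2 to Fads3 was smaller with normexp background correction, at -0.23 with the 75th percentile and -0.28 with quantile normalization.

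Among the elongases, Elovl1 minus Elovl4 was -1.34 (SE 0.071), Elovl1 minus Elovl5 was -0.61 (SE 0.042) and Elovl1 minus Elovl6 was -0.54 (SE 0.067). Elovl4 minus Elovl5 was 0.74 (SE 0.047) and Elovl4 minus Elovl6 was 0.81 (SE 0.078). Elovl4 is thereby apart from Elovl1, Elovl5 and Elovl6, although with the mean of its 2 probes these differences were smaller, at -1.15 from Elovl1, 0.56 from Elovl5 and 0.63 from Elovl6. Elovl5 and Elovl6 were not told apart. Their difference in change was 0.070 (SE 0.045, exact permutation p = 0.30), with knockdown arrays from -0.0069 to 0.12 and control arrays from -0.042 to 0.032.

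**Figure D3:**
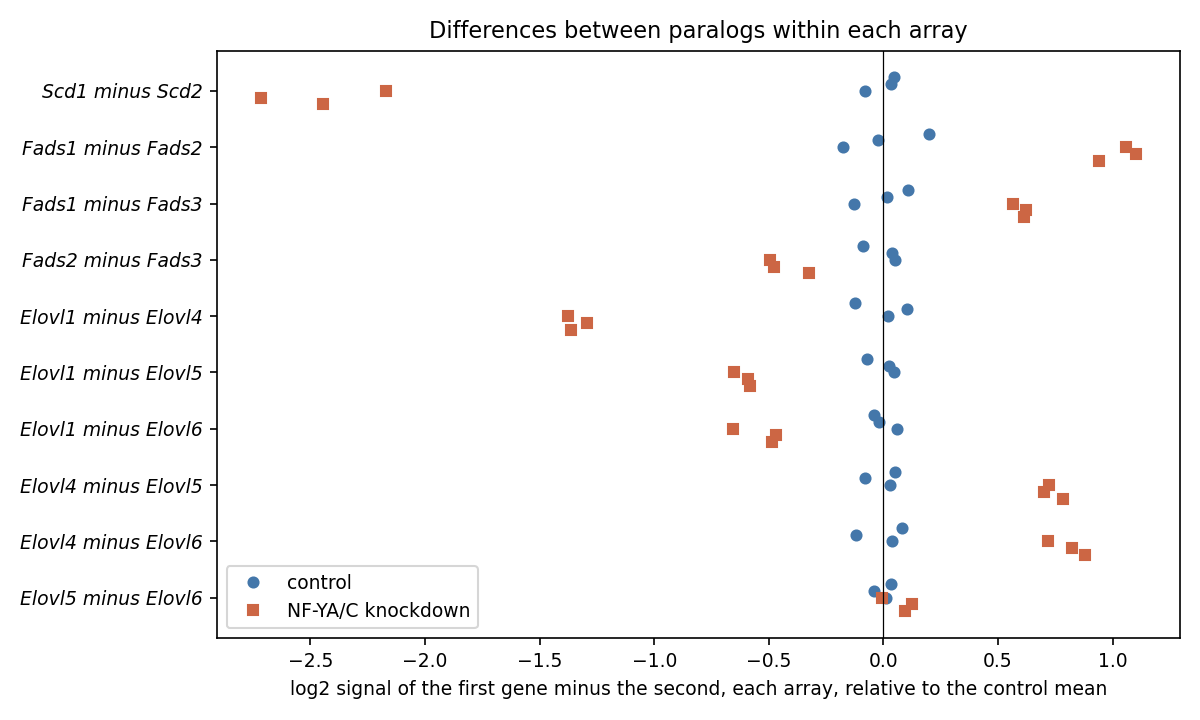
Log2 signal of the first gene minus that of the second on each array, for the 10 pairs that could be compared, set to 0 at the mean of the 3 control arrays (circles). Squares are the 3 knockdown arrays. All 3 lie outside the control arrays in 9 pairs. In Elovl5 minus Elovl6, 1 of the 3 lies among the controls, and they lie farthest away in Scd1 minus Scd2, at -2.72 to -2.17.

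The genes that work with these enzymes and 5 other family members were read from 6 lists with 53 tested genes. Of the 53, 10 were called lower and 0 higher, against 5.00% and 3.91% of all genes tested. At the adjusted p alone, 22 were lower and 3 higher, against 15.8% and 15.7% of all genes. The 10 called genes included Scd3, a family member whose probes did not agree. These lists were chosen with results of these data known and are not independent evidence. Of the electron supply to desaturases, 2 of 6 genes were called lower. Cyb5b, the cytochrome b5 of the outer mitochondrial membrane, changed by -1.54 (SE 0.054) and by -0.81 at its other probe, and Cyb5a, the cytochrome b5 of the endoplasmic reticulum, by -0.66 (SE 0.049). The median of that list was -0.40. Of the other steps of the elongation cycle, 2 of 6 genes were called lower. Hacd3, a dehydratase, was 5.35, 5.28 and 5.28 on control arrays and 3.82, 3.81 and 3.90 on knockdown arrays, a change of -1.46 (SE 0.049, adjusted p = 0.00032). Tecr, the reductase of the last step, changed by -0.64 (SE 0.047), and the median of the list was -0.37.

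Of 12 genes of substrate supply, 3 were called lower and the median was -0.32. They were Acss2, which makes acetyl-CoA from acetate (-0.86, SE 0.063), Acly, which makes it from citrate (-0.66, SE 0.051), and Acsl4, which activates arachidonic acid (-0.63, SE 0.074). The dimmer probes of Acss2 and Acly, at -0.52 and -0.51, were not called. Acsl4 was not called with the slide row as a block (-0.58, adjusted p = 0.057). Of 17 regulators, 2 were called lower and the median was -0.095. Scap, the escort protein that carries SREBP to the Golgi, changed by -0.80 (SE 0.045) and Srebf1, which encodes SREBP-1, by -0.67 (SE 0.058). Of 7 genes for the last, peroxisomal step of docosahexaenoic acid synthesis none was called, and the median was 0.0068.

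Of the other 5 genes of the desaturase and elongase families, Scd3 was called lower. Its 3 probes did not agree, with changes of -1.87 (SE 0.083), -0.25 (SE 0.11) and 0.16 (SE 0.16), of which the latter 2 were not called. Whether the brightest Scd3 probe also bound Scd1 transcripts was not tested, so the change of Scd3 is uncertain.

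**Figure D4:**
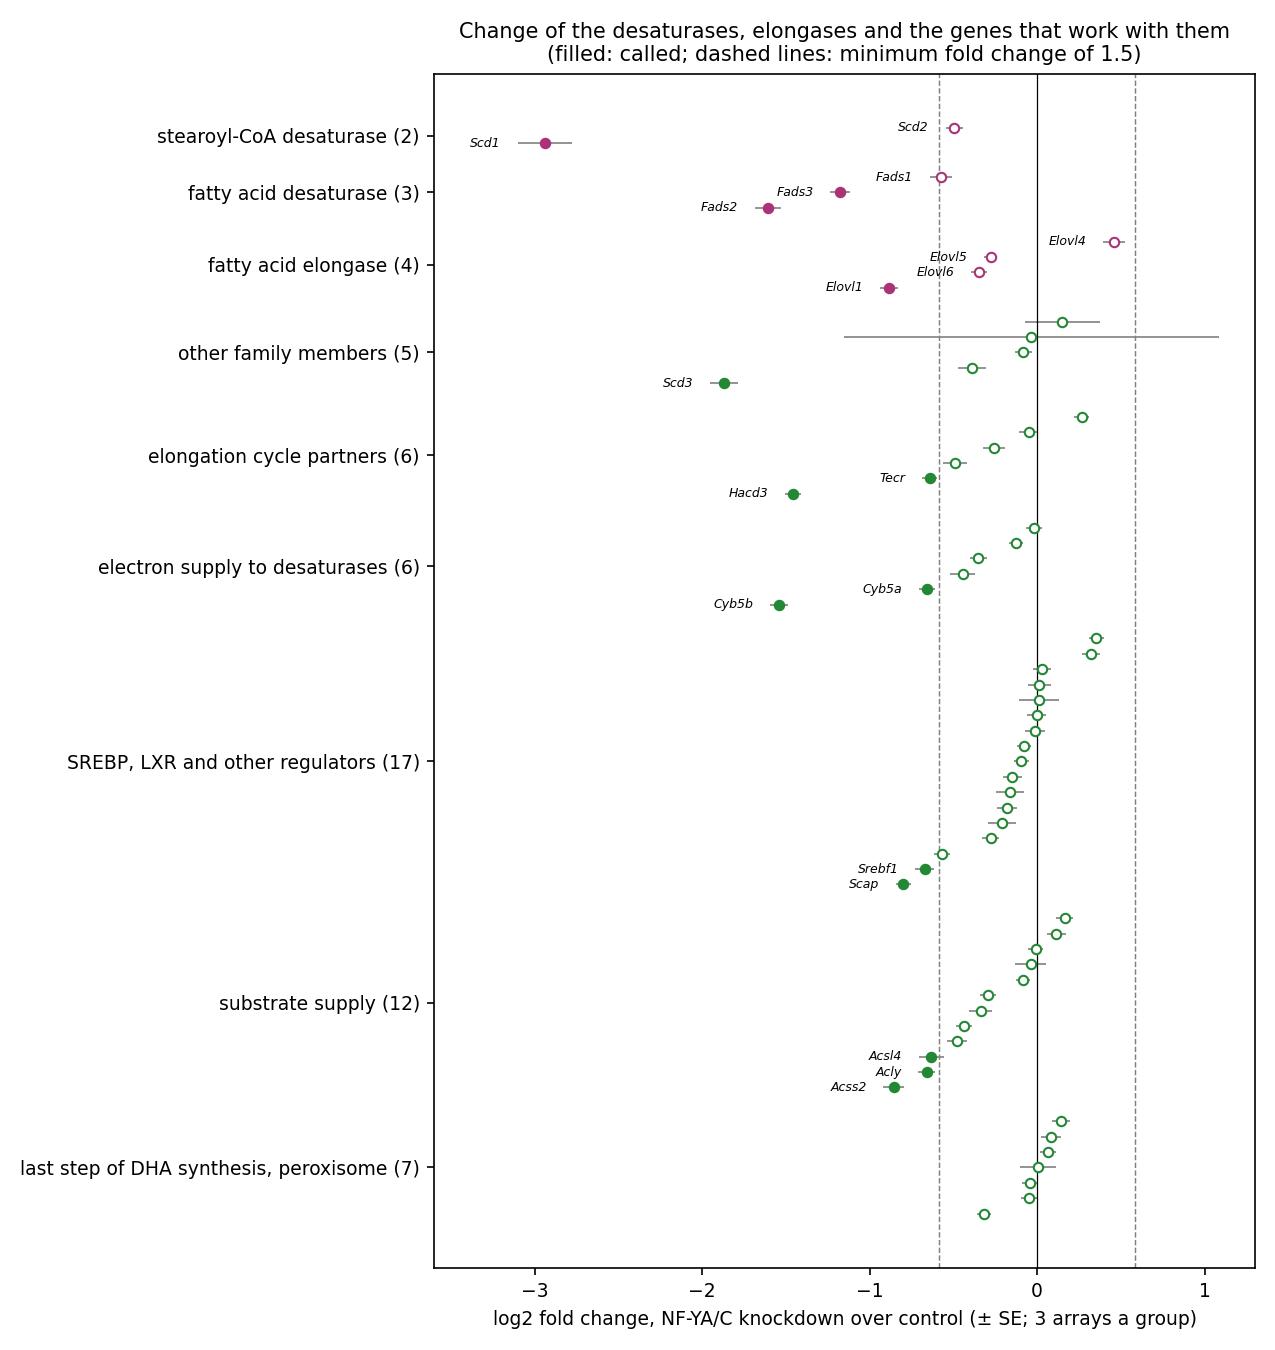
Log2 fold change of knockdown over control (± SE, 3 arrays in each group) for the desaturases and elongases (purple) and for 6 lists (green). Numbers of genes tested are in brackets. The lists hold genes that work with these enzymes and other family members, Scd3 among them. Filled points were called, dashed lines mark the minimum fold change of 1.5, and all called points lie on the left, from Scd1 at -2.94 to Acsl4 at -0.63.

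**Figure D5:**
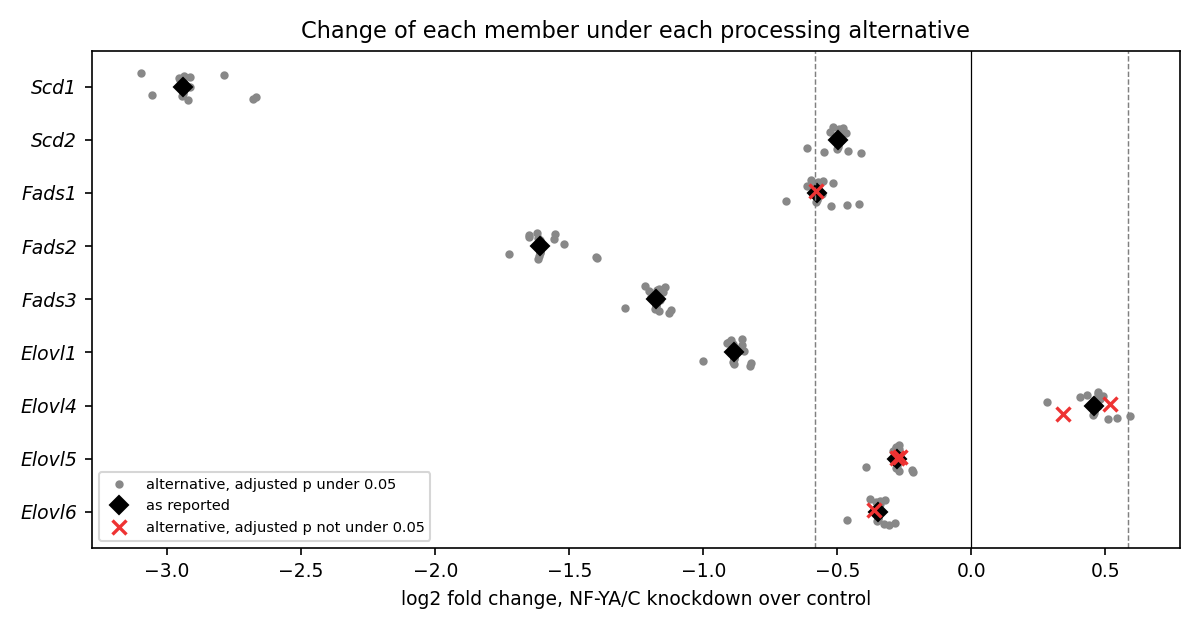
Log2 fold change of each member as reported (diamond) and under 22 processing alternatives (dots, or crosses where the adjusted p was not under 0.05). Dashed lines mark the minimum fold change of 1.5. None of the 9 genes changed sign, though alternatives in the filter, variance trend, replicate block or minimum fold change cannot move a gene's change. Leaving out an array, array weights or the slide row as a block could not reverse a sign, since the groups did not overlap. Scd1, Fads2, Fads3 and Elovl1 stayed to the left of the line in all 22. Fads1 and Scd2 lay on both sides of it, as did Elovl4 at the line on the right.

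Fads1 thus depended on the setting. It was called when control array 1, control array 2 or knockdown array 3 was left out, at -0.61, -0.59 and -0.60, which made 5 called members, and with scaling on the median, at -0.69. Scd2 was also called with scaling on the median, at -0.61 (adjusted p = 0.011), which made 6 members called lower. That scaling moved the median of all genes to -0.11, and relative to it Fads1 was at -0.58 and Scd2 at -0.50. Elovl4 had an adjusted p of 0.089 under that scaling. The paralog pairs were examined under 12 alternatives. Leaving out an array cannot make a non-overlapping pair overlap. Series matrix values and scaling on the median leave differences within an array unchanged, apart from a constant for each probe, so they cannot either. With quantile normalization, either version of normexp or the mean of a gene's probes, 9 pairs did not overlap. That mean can move only pairs with Elovl1 or Elovl4.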

How the data were processed

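RNA of 3 control and 3 knockdown samples was hybridised to single-colour Agilent arrays. The authors ran Feature Extraction 10.10.1.1, and the deposited intensity values are its processed, background-corrected signals. The deposited log2 series matrix held the same scaling to within 0.0076 over 43557 probes, less a constant for each probe that is not stated. Control and outlier spots were left out, and log2 signal minus the 75th percentile of the array was averaged over the spots of a probe. A probe was kept if it reached the 20th percentile of the array's spots on all 3 arrays of either group. This left 42126 probes. A version with the percentile taken over probes was also run, and the choice between them was made with the counts of both in view. Probes were named through RefSeq accessions (25869 of 26392 curated ones matched). Where a gene had several probes, the brightest on average stood for it. Knockdown was compared with control in limma 3.58.1 (R 4.3.3), with Benjamini-Hochberg adjustment over all probes, and paralogs by exact permutation over 20 assignments. The fit was tested on simulated data. There it gave unbiased changes and few false calls but missed many changed probes of noisy signal, and the pass criteria were loosened after a first, stricter version had failed. Members, lists and motifs were chosen with earlier results of these data known. Named genes are the members, the NF-Y subunits and called genes of the lists, or the largest change where none was called, which is not reported here. Normexp was run on the median signal, since the mean signal was not in the files. The number of arrays limits the precision.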

Additional observations from a re-analysis of the deposited data

How the results depend on the processing

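None of the 9 tested members changed sign under the 22 alternatives. Those in the filter, the variance trend, the replicate block or the minimum fold change cannot move a member's change, so they could not reverse it. The groups of all 9 members did not overlap. So leaving out an array, array weights or the slide row as a block could not reverse a sign either. The mean of a gene's probes cannot move a member with a single probe. Scd1, Fads2, Fads3 and Elovl1 were called in all 22, except Elovl1 at a minimum fold change of 2. That setting left 3 members called lower. Without a minimum fold change 8 members were lower and 1 higher, and 2602 genes were lower and 2597 higher. With a minimum of 2 these were 286 and 181 genes. Genes called higher fell from 644 to 278 with normexp and the 75th percentile, to 285 with normexp and quantile normalization, and to 382 with scaling on the median, and the share of called genes that were lower rose from 56.1% to 67.7%, 66.3% and 75.5%. Normexp with quantile normalization called 1 member higher, Elovl4 at 0.59. At the adjusted p alone, slide row as a block left 5 members lower and 0 higher, and scaling on the median left 0 higher. Members called lower ranged from 4 to 5 when an array was left out, and from 3 to 8 over all alternatives. Scd3 ranged from -1.91 to 0.13 when an array was left out, and reversed to 0.073 without control replicate 1 and to 0.13 without control replicate 3, where its probe A_55_P2052759 became the brightest. Acsl4 was no longer called without control replicate 3 (-0.58), with quantile normalization (-0.58), with normexp and quantile normalization (-0.57) or with slide row as a block. Tecr and Cyb5a were not called with normexp and the 75th percentile (-0.58 and -0.57) or with normexp and quantile normalization (-0.54 and -0.53). Acly was not called with the latter (-0.58) or with the mean of its probes (-0.58). A minimum fold change of 2 also removed Tecr, Cyb5a, Srebf1, Scap, Acly, Acss2 and Acsl4. With normexp and the 75th percentile Fads2 minus Fads3 shrank to -0.23. Non-overlapping pairs numbered 9 to 10 over 12 alternatives, though most could not make a pair overlap. The percentile over probes, chosen after seeing the data, gave 824 genes lower and 645 higher. After the group mean of each probe was subtracted, the remainders of same-numbered control and knockdown arrays correlated at 0.0178, 0.0666 and 0.00246. For arrays of different numbers these correlations ran from -0.0814 to 0.0627. With 3 arrays in a group, this cannot decide whether the samples were paired. The replicate block left 4 members called lower, 765 genes lower and 518 higher, and Elovl5 with an adjusted p of 0.052.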

Other observations

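The protein-coding genes next to the Fads and Scd clusters, 3 on each side, were looked up after the values of the members were known. Of all genes tested, 5.00% were called lower and 3.91% higher, so few calls are awaited among so few neighbours. Of the 6 genes flanking Fads3, Fads2 and Fads1, 4 were tested and 0 were called. Rab3il1, beside Fads3, changed by 0.53 (SE 0.059, limma adjusted p = 0.0040), which was under the minimum fold change. Fen1, beside Fads1, changed by 0.060 (SE 0.039), Fth1 by 0.063 (SE 0.047) and Tmem258 by -0.12 (SE 0.044). The Scd stretch was taken from Scd2 to Scd1, so Scd3, a gene of the same family, counted as flanking. Of the 6 genes flanking Scd2 and Scd1, all 6 were tested and 1 was called, this Scd3, whose probes disagreed. Scd4, which lies between Scd2 and Scd1, changed by 0.15 (SE 0.23) and was not called. Bloc1s2 changed by -0.011 (SE 0.067) and Ndufb8 by -0.078 (SE 0.047). Less precise were Wnt8b at 0.58 (SE 0.54), Pkd2l1 at 0.048 (SE 0.15) and Sec31b at -0.028 (SE 0.26).

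Among tested genes in the promoter table, CCAAT on either strand was present in 55.8% of 660 genes called lower, 36.5% of 491 called higher and 42.1% of 11947 not called. These shares are given as a description, without a test.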
